A study of Salmo salar with 30 samples.

Results

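The results concern 114 microarray probes whose signal in the distal intestine of Atlantic salmon was lower with soybean meal and nearer to control when the feed also held package 2, but not package 1. They were chosen from 14841 non-control probes by measured values. A probe's level was its log2 signal minus the 75th percentile of that array, so 0 is the 75th percentile, and d is the mean level of a diet's 5 fish minus the mean of the 5 control fish. The probe had to be well above background on all 30 arrays, which held for 11484 probes. Its d with soybean meal had to be below −1, a more than 2-fold drop, with every soybean meal fish below every control fish, which left 500 probes. Of that drop, soybean meal + P2 fish had to keep at most 60% and soybean meal + P1 fish at least 75%.

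The study fed salmon of 177 g for 67 days at 11.2 °C in 18 tanks, and 5 fish per diet were profiled with 1 array each. Control fish ate a fish meal feed. Soybean meal was in 3 feeds, given alone, with package 1 (P1, butyrate at 0.01% and arginine at 1.5%) or with package 2 (P2, butyrate at 0.01%, β-glucan at 0.1% and nucleotides at 0.05%). A further 2 feeds held corn gluten per the labels, alone or with P2, and the names of their deposited data also mention pea, which the labels do not. The labels used here give no strain, age or tank of a fish. The 30 arrays, of 1 fish each, outnumber the 18 tanks, so some of these fish shared a tank. The p-values below treat fish as independent all the same.

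The distal intestine is the hindmost gut segment of salmon, where enterocytes take up what remains of the digested feed. Soybean meal is known to inflame it in salmon, and absorptive functions of its epithelium are known to decline during that inflammation. Butyrate is a short-chain fatty acid that gut epithelium can use as fuel, arginine is an amino acid, β-glucans are cell wall polysaccharides that innate immune receptors recognise, and nucleotides are building blocks of nucleic acids. P1 and P2 share butyrate, so they differ in arginine on one side and β-glucan with nucleotides on the other. The files do not pair probes with genes, and the RefSeq gene table of the species held 0 of the 14841 identifiers. The probes therefore carry identifiers only, no gene function can be given, and tissue markers could not be read. In bulk tissue, fewer cells of a type and less RNA per cell cannot be told apart.

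Between 12491 and 13376 probes per array were well above background, 0 spots were saturated, and the arrays lay on 6 slides. Among the 114 probes, 7 spots on 3 probes were marked as outliers, and the rule was met by the same 114 probes without those spots. Control and soybean meal fish shared no slide. Soybean meal + P2 fish shared slides with control fish in 3 of their arrays and with a soybean meal fish in the other 2.

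The drop with soybean meal was moderate for most of the 114 probes and the return with P2 was partial. These values were used for the choice and are a description. With soybean meal the probes were a median of 2.51-fold below control, with a range of 2.01-fold to 12.4-fold, and 15 probes were more than 4-fold lower. Median d over the probes was −1.33 for soybean meal alone, −1.21 for P1 and −0.62 for P2 (log2 units). Taking each fish's median over the 114 probes, relative to the control mean, soybean meal fish averaged −1.37 ± 0.18, P1 fish −1.23 ± 0.30 and P2 fish −0.62 ± 0.19 (SD, n = 5 each). P2 fish thus kept a median of 48.3% of each probe's drop, with quartiles of 38.4% and 55.8%, and P1 fish kept 89.7%, with quartiles of 82.3% and 98.7%. At 24 probes the P1 mean lay below the mean of soybean meal alone. "Restored" therefore describes few of them: 17 probes kept 25% of the drop or less with P2, while 50 kept more than 50%.

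No gap in the data set the group apart from its neighbours. The smallest drop among the 114 was −1.01 at Ssa#CX357488, and Ssa#GRASP209738071 missed that limit at −0.997. Ssa#AM402760 kept 59.8% of its drop with P2 and was inside, while Ssa#GRASP209736647 had a ratio of 0.601 and was outside. At the P1 limit, Ssa#KSS2334 kept 75.4% and was inside, and Ssa#KSS3215 had a ratio of 0.75, just under the limit, and was outside. Ssa#DY741152 separated soybean meal from control fish by only 0.0065 log2 units, and Ssa#S35542191 failed with an overlap of −0.0093. A further 65 probes met every condition but the separation of fish, and 259 met every condition but the 2-fold drop.

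The largest drops belonged to a bright probe and to a fainter one, with mean levels over the 30 arrays of 4.72 and −3.16. Ssa#S30237902 had levels of 5.61, 6.42, 7.17, 6.45 and 5.90 in control fish 1 to 5. With soybean meal it lay at 2.62, 1.57, 2.18, 3.97 and 3.05. With P1 the levels were 2.41, 2.01, 2.42, 5.17 and 3.57, and with P2 they were 4.54, 2.74, 4.36, 4.82 and 4.62. Fish 4 of the P1 diet was thus the highest of all fish of the 3 soybean meal feeds, and fish 2 of the P2 diet lay within the soybean meal range. The drop was 12.4-fold with soybean meal alone (d = −3.63), and P2 fish kept 57.7% of it.

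Omy#CX253324 fell by 3.61 log2 units with soybean meal and kept 45.1% of that with P2. It lay at −3.15, −1.49, −0.96, −0.66 and −0.81 in control fish and at −5.05, −5.47, −4.96, −4.90 and −4.76 with soybean meal. With P2 the levels were −2.97, −2.63, −2.11, −2.64 and −4.87. Fish 5 of the P2 diet was at the soybean meal level, while the other 4 were above every soybean meal fish. With P1 the levels were −5.04, −3.58, −3.38, −4.62 and −4.67, so fish 2 and 3 stood clear of the soybean meal fish, fish 4 and 5 lay just above them and fish 1 lay among them. The probe was also low in corn gluten fish 2 and 3 (−3.54 and −3.01) and in 4 of the 5 corn gluten + P2 fish (−3.37 to −2.99, against −1.71 in fish 4).

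The lowest shares kept with P2 were at dim probes. Ssa#S31996777 had levels of −4.59, −4.59, −3.04, −4.89 and −4.79 in control fish, −5.86, −5.49, −5.61, −5.52 and −6.06 with soybean meal, and −4.78, −3.59, −3.80, −3.88 and −4.90 with P2. Every P2 fish was above every soybean meal fish, and the P2 mean was 0.19 above the control mean. Ssa#CB513950 lay between −5.41 and −4.59 in control fish, between −6.56 and −5.74 with soybean meal and between −4.90 and −4.50 with P2. In P1 fish it was at −6.49, −4.95, −5.04, −6.20 and −6.45, with fish 2 and 3 in the control range and the other 3 in the soybean meal range.

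Signal level divided the 114 probes into sets that differed between fish. Ordered by their mean level over the 30 arrays, which the rule did not use beyond detection, they were divided, after the values had been seen, into 3 sets of 38 probes. The dim set ran from −5.83 to −3.24, the middle set from −3.16 to 0.17 and the bright set from 0.21 to 6.25. Across the 114 probes the median level of −1.55 was close to the −1.53 of all 11484 probes well above background. Median d with soybean meal was alike in the 3 sets, at −1.32, −1.39 and −1.31 from dim to bright. With P2 the median share of the drop kept was 35.5%, 51.4% and 52.1%. Of the 17 probes that kept at most 25%, 15 were in the dim set and 2 in the middle set.

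In the bright set the P2 fish resembled each other and 1 P1 fish resembled them. The median over the 38 probes, relative to the control mean, was −0.66, −0.88, −0.59, −0.48 and −0.73 in P2 fish 1 to 5. Soybean meal fish ranged from −1.72 to −1.10, and P1 fish had −1.45, −1.56, −1.28, −0.57 and −1.21. All P2 fish were above all soybean meal fish, as the choice of probes favours. P1 fish 4 lay within the P2 range and was the highest P1 fish at 33 of the 38 bright probes and 29 of the 38 middle ones. The middle set had medians of −0.81, −0.87, −0.58, −0.50 and −0.78 for P2 and −0.67 for P1 fish 4 against −1.62 to −1.24 for the other P1 fish. Control fish spread from −0.40 (fish 1) to 0.34 (fish 4) in the bright set.

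The dim set divided fish of 1 diet from each other. Its median was −0.19, −0.20, −0.04 and −0.20 in P2 fish 1 to 4, within the control range of −0.40 to 0.24, and −1.44 in P2 fish 5, within the soybean meal range of −1.54 to −1.11. P2 fish 5 was the lowest P2 fish at 32 of the 38 dim probes, and at 7 of the middle and 5 of the bright ones. P1 fish 2 and 3 had −0.74 and −0.83, above every soybean meal fish, and P1 fish 1, 4 and 5 had −1.56, −1.18 and −1.50. The fish that stood out in the dim set were therefore other fish than P1 fish 4. Corn gluten fish, which the rule used only to require detection, also spread widely here, from −0.65 (fish 2) to 0.28 (fish 1), as did corn gluten + P2 fish, from −0.91 (fish 1) to 0.03 (fish 5). The median SD between fish of a diet was 0.54 log2 units in the dim set, against 0.37 over all 3084 probes of that level range. It was 0.41 against 0.25 in the middle set and 0.32 against 0.20 in the bright set.

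Probes within the dim set and within the bright set tended to move together across fish. Over the 10 corn gluten fish, with diet means removed, the mean correlation between pairs of probes was 0.32 in the dim set and 0.12 for all 3084 probes of its level range. It was 0.32 against 0.02 in the bright set and 0.12 against 0.01 in the middle set. These are descriptions over few fish. All probes of an array share its scaling, and dim probes share its background. The fish pattern of the dim set was also seen in the 46 soybean-lowered probes that kept at most 60% of the drop with both packages. Their median was −1.04 in P2 fish 5 and between −0.09 and 0.15 in the other P2 fish. In P1 fish 2 and 3 it was −0.20 and −0.21, and in the other P1 fish −1.04 to −0.97. These 46 probes had a median level of −3.85.

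The dim probes also depended on the signal used. An alternative setting took the spot's median signal, modelled its background (normexp) and added an offset of 50, which shrinks folds of dim probes, and these changes were not tried one by one. Under it, 55 probes met the rule and 40 of them were among the 114. These 40 were 32 of the 38 bright probes, 8 of the middle ones and 0 of the dim ones. The 2-fold drop alone was met there by 34 bright, 23 middle and 3 dim probes, so few dim probes could meet the rule. Under that setting, median d of the bright set was −1.29 for soybean meal alone, −1.14 for P1 and −0.60 for P2. In the dim set it was −0.58, −0.72 and −0.54. All probes of the dim level range shifted as well, to medians of −0.17, −0.37 and −0.46 in the same order. Relative to their range the dim set lay at −0.41, −0.34 and −0.08. Of the probes with the largest drops, Omy#CX253324 had d of −2.01, −1.90 and −1.27 under that setting. Ssa#S30237902 had −3.62, −3.14 and −2.04.

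The overlap of fish is given here as a further description of the contrasts that chose the probes. Every P2 fish was above every soybean meal fish at 29 of the 114 probes (25.4%), where 3.65% of the 11484 probes had such a separation upward. The rule used the fish of all 4 diets counted here, so nothing is read from these counts. Leaving out 1 of the 10 soybean meal or P2 fish can only keep or raise the count of 29, and gave 30 to 61. The largest counts were 61 without P2 fish 5, 49 without P2 fish 2 and 47 without soybean meal fish 4. The 3.65% does not apply to these counts, since it was taken with all fish. Every P2 fish was above every P1 fish at 6 of the 114 (5.26%, background 2.08%). Every P2 fish was below every control fish at 39 of the 114 (34.2%, background 6.34%), and every P1 fish was at 75 (65.8%, background 9.37%). At 75 probes the P2 and control ranges overlapped.

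Fish of different diets could be set side by side within some slides. The fish on these slides also served to choose the probes, which favours such differences, so nothing is read from the counts. On the slide that held 2 P2 fish and 1 soybean meal fish, the median difference was 0.82 log2 units, against 0.73 over all fish. There 113 of the 114 probes were higher with P2, and the median over all probes well above background was −0.003. The difference was 1.03, 0.78 and 0.72 in the dim, middle and bright set. On the slide with P2 fish 5 and P1 fish 1 and 2, P2 was higher by 0.87 in the middle set and 0.81 in the bright set, and differed by −0.11 in the dim set. With slide as a block in the fit the median difference between P2 and soybean meal was 0.69.

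P1 within slides gave unlike values. On the slide with P1 fish 3 and 4 and soybean meal fish 1 and 2, P1 was higher at 102 of the 114 probes, with a median of 0.46 log2 units. That slide held the P1 fish with the highest median over the 114 probes, fish 4 (−0.74 relative to the control mean). It also held the soybean meal fish with the lowest, fish 1 (−1.61). On the slide with P1 fish 5 and soybean meal fish 3 and 4 the median was 0.07 and 61 probes were higher. Over all probes well above background, the medians on these slides were 0.06 and 0.04. Over all fish the median of the 114 was 0.13. P2 fish lay below the control fish of their own slide by a median of −0.90 (2 fish of each) and −0.95 (1 of each). Over all fish it was −0.62. The first of these slides held control fish 3 and 4, whose medians over the 114 probes were the highest of the control fish (0.20 and 0.29). The second held P2 fish 5, whose median was the lowest of the P2 fish (−0.90). These fish medians are relative to the control mean. No slide held both soybean meal and control fish.

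Whether P2 also raised these probes on another plant protein was tested in the corn gluten diets, whose fish did not enter the rule beyond detection. The test was limma across all 13577 probes kept, with Benjamini-Hochberg adjustment. Of the 114 probes 0 passed for P2 in corn gluten, where 0.0% of all probes passed in either direction. A count of 0 at that rate does not show that P2 left these probes unchanged. At an unadjusted p below 0.05, 4 of the 114 were higher and 4 lower with P2 (3.51% each), against 4.86% and 2.71% of all probes. The median difference over the 114 probes was 0.02 log2 units, 61 were higher and 53 lower, and over all probes the median was also 0.02. The median SE of a probe was 0.25. Corn gluten fish with and without P2 shared no slide, and with slide as a block the median was 0.17. The blocked value links their slides through fish of the other diets, which chose the probes, so it is not independent of the rule. The median difference with P2 in soybean meal, where it was chosen, was 0.73, and 0.69 with that block. The difference between both plant proteins was not tested.

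By level, the medians with P2 in corn gluten were small. In the bright set the median was 0.17 and 27 of 38 probes were higher with P2 (71.1%, against 50.1% of all probes in that range). In the dim set it was −0.05 with 14 of 38 higher (36.8%, against 58.1% in that range), and in the middle set 0.003 with 20 of 38 higher. Fish overlapped in all 3 sets. In the bright set corn gluten fish had medians of −0.14, −0.31, −0.25, −0.27 and −0.04 relative to the control mean, and corn gluten + P2 fish had 0.14, −0.27, −0.01, −0.14 and −0.02.

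No single one of these probes passed the adjusted test for P2 in corn gluten. Ssa#S18862675 was the highest with P2. It lay at 0.27, −3.33, −0.61, −1.61 and −2.10 in corn gluten fish and at 1.01, −0.00, 1.67, −0.80 and −0.90 with P2, and the ranges overlapped. The difference was 1.67 ± 0.60 (SE, limma adjusted p = 0.515). Ssa#CA041572, a bright probe, followed with 0.93 ± 0.34 (SE, limma adjusted p = 0.515). It lay between 1.23 and 2.67 in corn gluten fish and between 2.28 and 3.31 with P2, and the diets overlapped. In the soybean meal diets it was at 0.29, −0.30, −0.16, 0.43 and 0.08 without a package and at 1.36, 0.26, 0.83, 0.85 and 1.23 with P2, so that only P2 fish 2 lay within the soybean meal range.

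At the other end, Ssa#KSS2334 was lower with P2 in corn gluten by a difference of −1.45 ± 0.54 (SE, limma adjusted p = 0.538). It lay at −1.17, −3.76, −1.87, −1.75 and −1.35 without P2 and at −4.22, −3.75, −3.90 and −3.47 with it in fish 1, 2, 3 and 5. Fish 1 and 3 with P2 lay below every fish without it, and the other 3 lay within that range. In soybean meal it went the other way, with −4.41, −4.37, −3.98, −4.29 and −3.95 alone and −1.76, −1.82, −1.53, −1.68 and −3.95 with P2. P2 fish 5 was at the soybean meal level and the other 4 were within the control range of −3.10 to −1.34. Ssa#CX357488 had −0.67 ± 0.68 (SE, limma adjusted p = 0.856). In that fit the other probes with an unadjusted p below 0.05, named after their values were seen, were Ssa#AM402682 and Omy#S34311438 as higher and Omy#S50901456, Ssa#S31976098 and Ssa#DY695490 as lower. Of these, Omy#S50901456 alone had every corn gluten + P2 fish below every corn gluten fish (difference −0.58 ± 0.16, SE, limma adjusted p = 0.386). Among the 11484 probes, 0.566% had such a separation downward, and 0.74% had one upward, where 0 of the 114 did.

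Corn gluten fish lay nearer to the control level at these probes than soybean meal fish did, less so in the dim set with P2. The rule required low soybean meal fish, which favours that order, so nothing is read from it. The control fish had also entered the rule, and probes chosen for high control fish tend to be lower in any other diet. These values are therefore set beside those of other soybean-lowered probes. Median d was −0.20 with corn gluten and −0.17 with corn gluten + P2, against −1.33 with soybean meal. Over all 500 soybean-lowered probes it was −0.20, −0.24 and −1.38 in the same order. From dim to bright set of the 114 it was −0.26, −0.13 and −0.20 with corn gluten. With corn gluten + P2 it was −0.49, −0.15 and −0.07 in the same order. Within slides, corn gluten lay below control by a median of −0.28 (2 fish against 1, 95 probes lower). All probes well above background had a median of −0.07 there. Corn gluten + P2 had a median of 0.05 against control on the 1 slide they shared (2 fish of each), with 62 probes higher and 52 lower. All probes well above background had a median of −0.007 on that slide. The direction of the median over the 114 probes thus turned there. The dim set stayed below control at −0.25, while the middle and bright sets lay at 0.13 and 0.21. The control fish on that slide, fish 1 and 2, had low medians over the 114 probes, at −0.35 and −0.12 relative to the control mean. Of the 114 probes, 97 (85.1%) were below control with corn gluten, against 87.0% of all 500 soybean-lowered probes and 82.4% of the 102 that kept at least 75% of the drop with both packages. With corn gluten + P2 these shares were 74.6%, 77.8% and 72.5%. Over the 11484 probes they were 54.3% and 49.4%.

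In limma 0 of the 114 probes passed between corn gluten and control, where 0.0663% of all probes passed as higher and 0.0% as lower. At an unadjusted p below 0.05, 10 were lower (8.77%, against 3.26% of all probes) and 0 higher (against 2.80% of all probes). For corn gluten + P2 against control 0 passed, where 0.0737% of all probes were higher and 0.0295% lower. There, 17 were lower at an unadjusted p below 0.05 (14.9%, against 5.14%) and 1 higher (0.88%, against 6.31%). The 1 higher was Ssa#CA041572 (0.72 ± 0.34, SE, limma adjusted p = 0.412). The rule chose probes with high control fish, which favours lower calls in both comparisons, so no excess or shortfall is read from these shares. Every corn gluten fish was below every control fish at 1 probe (background 0.479%), Ssa#GRASP209734115, and every corn gluten + P2 fish at 1 probe (background 0.993%), Ssa#GRASP209733165. Both were named after their values were seen.

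The probes highest with corn gluten against control were Ssa#S35706877 and Ssa#GRASP221220631. Ssa#S35706877 was at −0.82, −1.16, −0.39, 0.27 and −0.56 in control fish and at 0.00, −0.26, −0.28, −0.04 and −0.13 with corn gluten, a difference of 0.39 ± 0.34 (SE, limma adjusted p = 0.949). In the soybean meal feeds it had −2.23, −2.06, −2.10, −1.19 and −1.95 alone, and −2.97, −3.52, −2.97, −1.10 and −1.39 with P1. P1 fish 1, 2 and 3 were thus below every soybean meal fish and P1 fish 4 above them all. Ssa#GRASP221220631 differed by 0.31 ± 0.23 (SE, limma adjusted p = 0.922).

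The probes lowest with corn gluten differed widely between fish of the same diet. Ssa#DW575789 lay between −1.46 and −1.02 in all 5 control fish. With corn gluten it was at −0.98, −1.50 and −1.64 in fish 1, 3 and 4 and at −4.74 and −4.00 in fish 2 and 5. With soybean meal alone it was at −1.78, −1.67, −1.77, −3.15 and −4.63, so most of its drop came from fish 4 and 5. With P1 it was at −2.84, −1.81, −1.55, −3.74 and −4.80. With P2 in soybean meal it was at −4.57 in fish 5 and between −1.49 and −0.78 in the other 4. The difference between corn gluten and control was −1.38 ± 0.82 (SE, limma adjusted p = 0.87), smaller than the spread between corn gluten fish (SD 1.68, n = 5). Ssa#DY699071 differed by −1.32 ± 0.59 (SE, limma adjusted p = 0.808) and was at −2.01 and −2.39 in corn gluten fish 1 and 4 and between −5.06 and −4.78 in fish 2, 3 and 5.

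Among the other classes of the 500 soybean-lowered probes, the 102 lay close to the 114 in signal level and in the P2 difference in corn gluten. The 46 were dimmer and differed in sign there. The 102 probes that kept at least 75% of the drop with both packages had a median level of −1.29 and a median difference with P2 in corn gluten of 0.03. The 114 probes had −1.55 and 0.02, and the 46 that kept at most 60% with both packages had −3.85 and −0.16. All 11484 probes had −1.53 and 0.02, so the closeness is not particular to these classes. The dim set of the 114 had −4.45 and −0.05, with the same sign as the 46. Keeping at most 60% with P1 and at least 75% with P2, the mirror of the rule, was met by 3 probes. Between the classes lay 235 probes, with a median level of −0.005 and a median difference with P2 in corn gluten of −0.02. Identifier classes, which give no gene function, included 42 probes (36.8%) of the Ssa#S class, against 37.3% of the 11484. The Ssa#GRASP class held 14 probes (12.3%), against 26.1%, and 13 probes (11.4%) had the prefix Omy#, against 7.76%. No test was made of these shares.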

How the data were processed

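Total RNA of distal intestine was labelled with Cy3 and hybridised to 1-colour Agilent arrays, per the labels' protocols. Per the file headers, the authors extracted spots with Agilent Feature Extraction 12.0.1.1. Its deposited processed signal is a linear intensity from which background was already subtracted, and its deposited flags mark detection and outlier spots. The authors' value table holds intensity values, which matched the spot median minus local background times 1 factor per array, and served as an alternative.

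The log2 processed signal minus the array's 75th percentile over non-control probes was used. limma 3.58.1 in R 4.3.3 estimated 1 mean per diet from the 30 arrays together, outlier spots left out, on the 13577 probes well above background on at least 5 arrays, which all 114 passed by their rule. Adjustment was within each comparison, at a threshold of 0.05. limma and the rule were checked on simulated data. The planned normexp input (spot mean) was replaced by the spot median, with an offset of 50. The planned gene lists found 0 genes. Named probes are the 2 most extreme per comparison and direction, plus neighbours of each limit and small counts. The probes and lists were chosen with earlier results of these data known. The number of arrays limits precision.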

Additional observations from a re-analysis of the deposited data

Results flagged for a closer look

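Single fish stood apart at the named probes. In groups of 5 fish, a fish is listed when its gap to the nearest other fish exceeds 0.71 of the group's range. Among 78 groups examined 14 such fish were found. Chance gives about 1 in 20 in groups that were not selected. These probes were named for extreme differences, which can favour such fish, so no excess is read from the 14 fish. Probes of 1 set vary together, so these are not separate observations.

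P2 fish 5 of the soybean meal diets was apart as low at 4 probes, at −3.95 for Ssa#KSS2334, −4.63 for Ssa#CX357488, −4.57 for Ssa#DW575789 and −4.20 for Ssa#DY699071, where the nearest fish lay at −1.82, −3.15, −1.49 and −2.57. Ssa#CX357488 was low in soybean meal fish 5 (−5.53) and P1 fish 5 (−6.32) too. Corn gluten fish 2 was low at Ssa#KSS2334 (−3.76) and at Ssa#CX357488 (−5.25). P2 fish 2 was low at Ssa#S30237902 (2.74) and Ssa#S18862675 (−3.34). The remaining fish were control fish 3 as high at Ssa#S31996777 (−3.04), control fish 1 as low at Ssa#CB513950 (−5.41), soybean meal fish 4 as high at Ssa#S35706877 (−1.19) and corn gluten + P2 fish 4 as high at Omy#CX253324 (−1.71).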

How the results depend on the processing

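Membership of the group depended on the signal used and on the limits of the rule. The rule was met by 55 probes with normexp on the spot median and an offset of 50, changes not tried one by one, 200 with a drop limit of −0.8, 64 and 208 with a P2 limit of 0.5 and 0.7, and 74 with a P1 limit of 0.85. Scaling to the array median gave 104 probes, quantile normalization gave 87 and the authors' deposited values gave 104, which shared 83, 81 and 84 probes with the 114. Without 1 fish the number ran from 91 (without P1 fish 1) to 170 (without control fish 1), sharing 89 to 108 probes with the 114, and 31 of the 114 met it whichever fish was left out. Over the 114 probes, normexp moved the median with soybean meal to −1.04 and the median difference between P2 and soybean meal to 0.47. Slide as a block, which here draws on fish that chose the probes, moved the median difference with P2 in corn gluten to 0.17. The cause was not tested. That median lay between −0.03 and 0.17 over all settings, and 0 of the 114 probes passed in any corn gluten comparison under any setting run. Over all probes, 9 passed between corn gluten and control, against 3 with slide as a block, 5 with normexp and 0 when the fit held only the diets compared. For corn gluten + P2 against control 14 passed, against 2, 6 and 2, and 3 without corn gluten + P2 fish 1. Other settings raised these counts, to at most 12 between corn gluten and control (without control fish 1). For corn gluten + P2 against control the highest count was 20 (quantile normalization). Fish numbers recur across diets, but with them as a replicate block 0 of the 114 passed as well. Same-numbered corn gluten fish with and without P2 did not consistently deviate together (r of −0.298 to 0.23). The labels used here do not say whether the numbers pair fish, and 5 fish per diet cannot settle it.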
